A study of Mus musculus with 11 samples.

Results

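Open chromatin was compared between esophageal cells of Krt5-SmoM2 mice with floxed Sox9 and cells of Krt5-SmoM2 mice, in 3 libraries of each. Both groups were sorted for high levels of EpCAM, an adhesion protein of epithelial cells. The members were the intervals called as open by ATAC-seq on chromosomes 1 to 19 and X of these 6 of the series' 11 libraries. ATAC-seq uses a transposase that inserts sequencing adapters where DNA is accessible. Intervals that shared at least 1 bp were merged, which gave 109301 regions with a median width of 671 bp. A region counted as open in a library where an interval of that library overlapped it. It is called gained where it was open in 3 of 3 libraries with floxed Sox9 (genotype label Krt5-SmoM2-Sox9fl/fl, here SmoM2-Sox9cKO) and in 0 of 3 without (Krt5-SmoM2, here SmoM2), and lost in the reverse case. The other libraries were 3 of wild-type cells (WT), sorted for low EpCAM, and 2 of Krt8YFP embryos at embryonic day 13, sorted on YFP (Embryo). Their counts at loci and runs cover only the regions merged from the 6 lists. WT or Embryo intervals outside these regions are left out, so a WT count of 0 does not mean that WT had no interval there.

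SmoM2 is a mutant, constantly active version of Smoothened, the membrane protein that switches on GLI transcription factors when Hedgehog ligands relieve its inhibition by Patched. Krt5 is a keratin of the basal layer of squamous epithelia, and its promoter directs the transgene or recombination to those cells. SOX9 is an HMG-box transcription factor of progenitor cells in cartilage, hair follicle, gut and other tissues, and it can open closed chromatin. It is also expressed in Hedgehog-driven basal cell carcinoma.

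Several features of the groups limit what the comparison can separate. A strain, CD1, is given for WT and SmoM2 and none for SmoM2-Sox9cKO, whose samples also carry numbers of another kind, so strain, batch and the Sox9 allele cannot be told apart. The labels give no ages, no inducer and no floxed part of Sox9, nor do they tie a replicate to an animal. The p-values therefore rest on the spread among these libraries, which may be technical. The 3 SmoM2-Sox9cKO libraries had 83110, 76592 and 74536 intervals and the 3 SmoM2 libraries 80589, 76827 and 87910. The means of 78079 ± 4476 and 81775 ± 5636 (SD, n = 3) did not differ beyond the spread (two-sided exact permutation p = 0.5, the smallest possible being 0.1). The depth of sequencing is unknown, since the lists carry no read numbers. At 4 Y-linked genes, SmoM2-Sox9cKO replicate 3 had 0 intervals, against 8 and 10 in the other SmoM2-Sox9cKO libraries and 9 in each SmoM2 library.

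The targeted gene was examined first. Sox9 (chr11:112782210-112787757, GRCm38) had 10, 12 and 9 open regions at its locus in SmoM2-Sox9cKO and 9, 10 and 11 in SmoM2, where a region belongs to the locus of whichever protein-coding gene is nearest, up to 100 kb away. No region at the locus was gained or lost. A single interval covered 17.7%, 16.8% and 16.2% of the gene body in the SmoM2-Sox9cKO libraries and 15.7%, 16.2% and 16.4% in SmoM2. The libraries therefore overlapped at Sox9, and the open interval at its start does not check whether an exon further in was removed. Within 1 Mb of Sox9, 3 of 180 regions were gained (1.67%) and 3 lost (1.67%). Within 10 Mb, 14 of 1594 were gained (0.878%) and 10 lost (0.627%). Over all regions 0.79% were gained and 1.54% lost, and the counts near Sox9 are small.

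In the lists as deposited, more regions were lost than gained in the libraries with floxed Sox9. Of the 109301 regions, 864 were gained and 1681 lost, which is 0.79% and 1.54% of all regions. The 6 libraries had 53471 regions in common. In these bulk libraries, a region opening or closing within cells and a change in the makeup of the sorted cells cannot be told apart. Next to the gained class, 1724 regions were open in 3 SmoM2-Sox9cKO and 1 SmoM2 library and 2397 in 2 and 0. Next to the lost class, 3078 were open in 1 SmoM2-Sox9cKO and 3 SmoM2 libraries and 3399 in 0 and 2. The Jaccard index, the share of open regions that 2 libraries have in common, was 0.739 ± 0.0156 (SD over 3 pairs) within SmoM2-Sox9cKO, 0.757 ± 0.00833 (3 pairs) within SmoM2 and 0.712 ± 0.026 (9 pairs) between them.

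**Figure D1:**
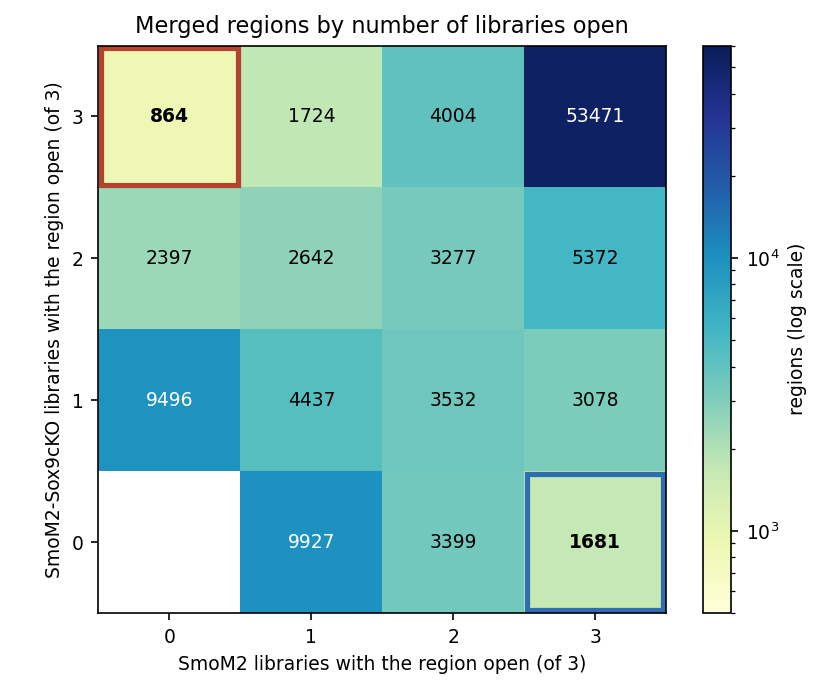
Number of merged regions by the number of SmoM2 libraries (horizontal axis) and SmoM2-Sox9cKO libraries (vertical axis) in which they were open, with colour on a log scale. The outlined cells hold the 864 gained and 1681 lost regions, and the upper right cell the 53471 regions open in all 6 libraries.

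The excess of lost over gained regions depended on which lists were used. With the 6 lists brought to equal length, 1209 regions were gained and 1394 lost. Leaving out 1 library makes the rule easier to meet and raised both counts: 1617 gained and 3496 lost without SmoM2-Sox9cKO replicate 1, 1807 and 2721 without replicate 2, and 1588 and 1932 without replicate 3. Without SmoM2 replicate 1 the counts were 1232 and 2906, without replicate 2 1093 and 3369, and without replicate 3, the longest list, 2005 and 2203. Lost regions outnumbered gained ones in each of these, by a ratio that was lowest without SmoM2 replicate 3.

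Both sets lay among the weaker intervals. By the authors' −log10 p-value, gained regions had median ranks in the top 79.5%, 83.2% and 78.7% of the 3 SmoM2-Sox9cKO lists, and lost regions in the top 73.6%, 79.5% and 73.7% of the 3 SmoM2 lists. Regions open in all 6 libraries had median ranks between the top 30.8% and 36.4%. The authors' fold enrichment had medians of 3.63 to 3.82 for gained and 4.06 to 4.31 for lost regions, against 6.24 to 7.73 for regions open in all 6. Of the gained regions 8 ranked in the upper part, within the top 50%, of all 3 lists (0.926%), and of the lost regions 52 (3.09%).

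Changed regions lay mostly away from transcription start sites, lost ones more so. Within 1 kb of a RefSeq start site were 62 of 835 gained regions (7.43%) and 59 of 1614 lost regions (3.66%), against 14% of all regions and 23.0% of those open in all 6 libraries; chromosome 18 has no start sites in the table used and is left out of these shares. The median distance to a start site was 18.9 kb for gained, 38.4 kb for lost and 19.4 kb for all regions. Lost regions were also farther from genes, with 332 (19.8%) beyond 100 kb of any protein-coding gene body, against 89 gained regions (10.3%) and 9.86% of all. Gene bodies held 53.1% of gained, 50.3% of lost and 57.3% of all regions.

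Chromosomes took unequal shares. Chromosome 13 had 148 of its 5403 regions lost (2.74%) and 33 gained (0.611%), and chromosome 10 had 113 of 5590 lost (2.02%) and 21 gained (0.376%). Chromosome 7 was the only chromosome with more gained than lost regions, 67 and 54 of 6204. Chromosome 11, which carries Sox9, had 83 gained and 85 lost regions of 7093, the highest share gained (1.17%).

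Lost regions formed more and larger runs along the genome than gained ones, but their closer spacing depended on the distance and the libraries used. Another region of the same set lay within 50 kb for 119 gained regions (13.8%) and 370 lost regions (22.0%). The median distance to the nearest region of the same set was 487 kb for gained and 259 kb for lost regions. The sets differ in size, which by itself shortens distances in the larger set. The class open in 3 and 1 libraries, with 1724 members close to the number of lost regions, had 9.80% of its members within 20 kb of another, against 13.4% of lost and 7.41% of gained regions. Within 50 kb this class had 19.3% and within 100 kb 30.8%, against 22.0% and 31.2% of lost regions, and its median distance of 218 kb was shorter than that of lost regions. Without SmoM2 replicate 3, where the sets were of similar size (2005 and 2203), the order reversed, with another within 50 kb for 24.0% of gained and 22.3% of lost regions. Without SmoM2-Sox9cKO replicate 2 the shares were 21.9% and 28.3%, and with lists of equal length 17.1% and 19.6%.

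**Figure D2:**
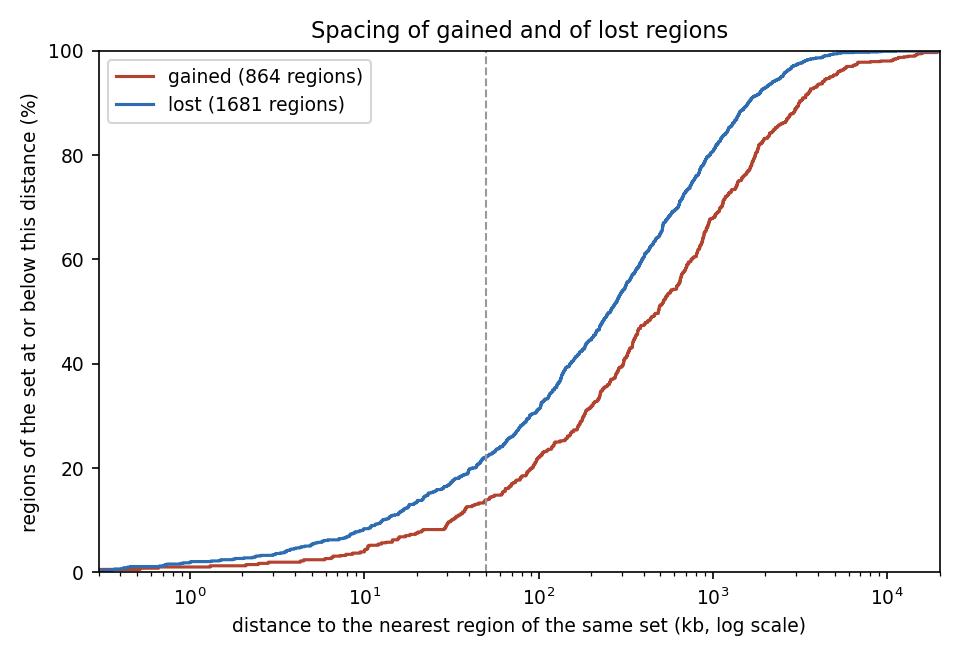
Cumulative share of the 864 gained and the 1681 lost regions (vertical axis, percent) by distance to the nearest region of the same set (horizontal axis, kb on a log scale), with the dashed line at 50 kb. At that line the curves stand at 13.8% for gained and 22.0% for lost regions.

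Directly adjacent regions tended to change in the same direction. Among the regions immediately beside a lost region, 242 of 3361 (7.20%) were also lost and 8 (0.238%) gained, where 1.54% and 0.79% of all regions were. Beside a gained region, 60 of 1728 neighbours (3.47%) were gained and 8 (0.463%) lost. Of the 412 lost regions with any changed region within 50 kb, the nearest was lost in 366 (88.8%), and of 163 such gained regions the nearest was gained in 114 (69.9%), where lost regions made up 66.1% and gained regions 33.9% of changed regions.

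Runs of at least 3 regions with gaps of at most 50 kb numbered 27 for lost regions (98 regions) and 10 for gained regions (33 regions), and 8 lost runs and 1 gained run had 4 or more. The run with the most regions lay in a gene desert beside Chrm3, the M3 muscarinic acetylcholine receptor gene. It held 9 lost regions within 165 kb (chr13:10526588-10691490), and the nearest protein-coding gene was Chrm3, 166 kb away. In this span the SmoM2 libraries had 11, 9 and 12 open regions, and the SmoM2-Sox9cKO and WT libraries 0 each. The authors' fold enrichment of its regions ran from 4.31 to 12.7, with a median of 7.74, so these intervals were stronger than most lost ones.

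The next lost run by number held 7 regions over 96.7 kb at Ear10 and Ear1 (chr14:43834199-43930879), genes of eosinophil-associated ribonucleases, with 11, 9 and 8 open regions in SmoM2, 1, 1 and 0 in SmoM2-Sox9cKO and 1, 2 and 1 in WT. A run of 5 lay at Nxph1, which encodes a ligand of neurexins (chr6:8924418-9004342), with 8, 6 and 5 open regions in SmoM2 and 0 in each SmoM2-Sox9cKO library. Runs of 4 lay at Fam78b (chr1:166931814-166949316), where all 4 regions of the span were lost, and at Adamts18, a secreted metalloprotease gene (chr8:113811582-113866366), where 4 of 5 were. Smaller lost runs of 3 included Bmp6, a bone morphogenetic protein, Lama4, a laminin chain, Mapk10, a stress kinase, and the gene pair Sprr2d and Sprr2f.

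The gained run with the most regions held 6 regions over 64.5 kb between Pax1 and Foxa2 (chr2:147703888-147768434), with Foxa2, a foregut endoderm factor, 274 kb away and Pax1 329 kb away. The SmoM2-Sox9cKO libraries had 10, 7 and 11 open regions in the span, SmoM2 1, 2 and 1, and WT 1, 2 and 0. The authors' fold enrichment ran from 3.52 to 13.2. Gained runs of 3 lay between Skint2 and Skint9 (chr4:112521048-112540831), at Slit3 (chr11:35231465-35261881), at Plekhf2 (chr4:10921571-10967304) and at the chemokine genes Ccl12 and Ccl8 (chr11:82086730-82133296). In the Skint and Ccl spans every region was gained and none was open in a WT library.

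**Figure D3:**
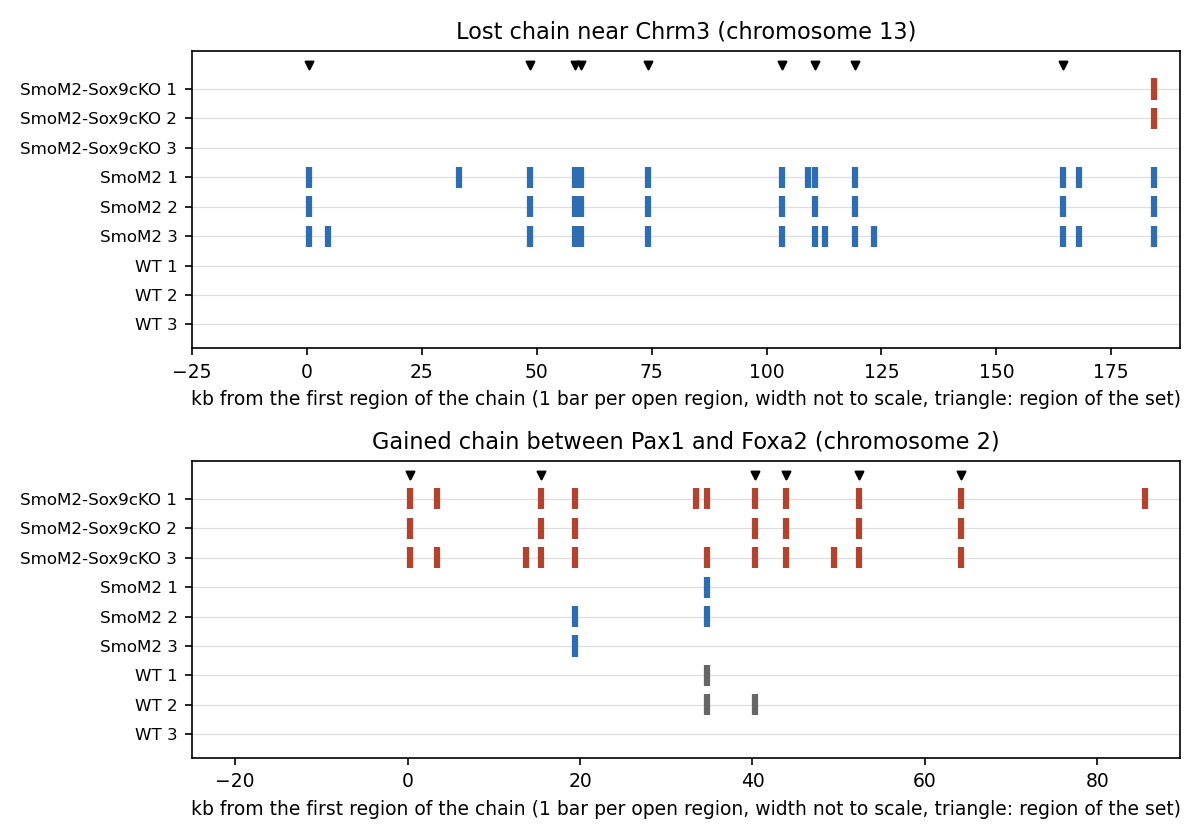
Open regions of each SmoM2-Sox9cKO, SmoM2 and WT library along the lost run near Chrm3 and the gained run between Pax1 and Foxa2, with distance from the run's start in kb on the horizontal axis, 1 bar per open region and triangles over the gained or lost regions. Between the outer triangles of the lost run the 3 SmoM2 libraries have 11, 9 and 12 bars and the other libraries none, and in the gained run the SmoM2-Sox9cKO libraries have 10, 7 and 11.

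The WT and Embryo lists played no part in choosing the regions and show how the changed regions stood in cells without SmoM2. Most lost regions were closed in every WT library, while gained regions were closed in every WT library about as often as all regions. Lost regions were open in 17.4%, 24.6% and 21.9% of cases in WT replicates 1 to 3, and gained regions in 47.8%, 57.6% and 58.4%, so each WT library had a higher share of the gained than of the lost set. Over all regions the shares were 57.3%, 63.0% and 62.7%, above both sets in each library. In all 3 WT libraries 193 lost regions (11.5%) and 320 gained regions (37.0%) were open, both below the 51.7% of all regions, and in none 1156 lost (68.8%) and 250 gained (28.9%). The share open in no WT library was 30.0% over all regions and 7.25% over regions open in all 6 libraries. With the 9 adult lists brought to equal length, a choice made after the data were seen, 69.7% of lost regions were open in no WT library and 44.6% of gained regions in all 3. WT cells were sorted for low and not high EpCAM, so gate and genotype cannot be told apart. The strain labels split the groups differently, being given for WT and SmoM2 and not for SmoM2-Sox9cKO.

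**Figure D4:**
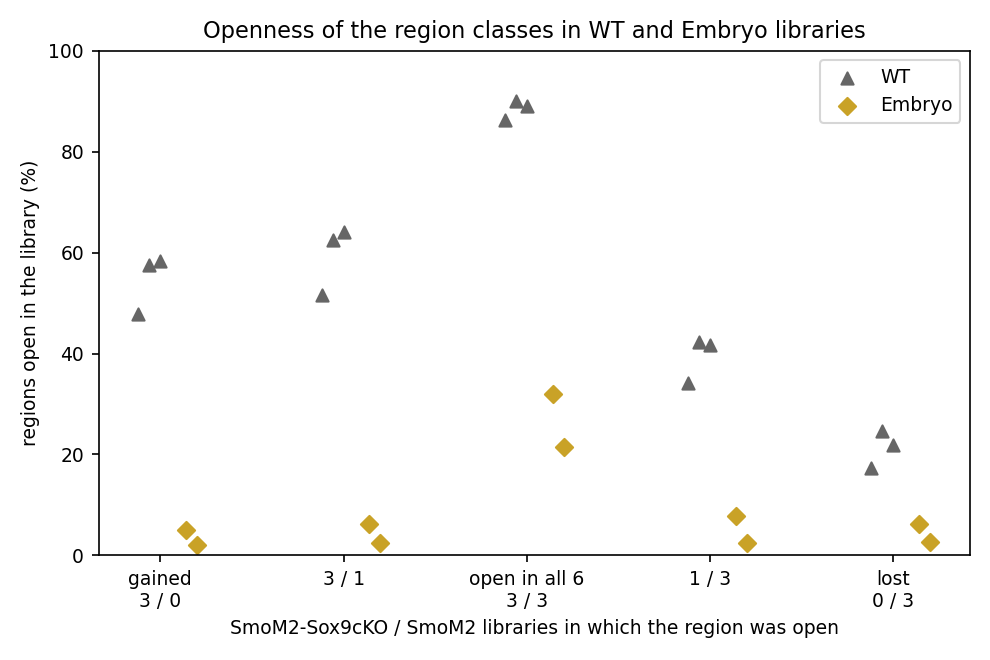
Percent of regions open in each WT library (triangles) and each Embryo library (diamonds), for 5 classes named by the number of SmoM2-Sox9cKO and SmoM2 libraries in which they were open. The WT points are at 47.8% to 58.4% for gained and 17.4% to 24.6% for lost regions, and the Embryo points are between 1.97% and 6.13% for both.

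The classes beside the changed ones differed from each other as well. Regions open in 3 SmoM2-Sox9cKO and 1 SmoM2 library were open in no WT library in 24.5% of cases, and regions open in 1 and 3 in 47.6%. Those open in 2 and 0 libraries were open in no WT library in 45.1%, and those in 0 and 2 in 64.8%. The class of 3 and 1 was thus closed in WT less often than gained regions (28.9%), and no class more often than lost regions (68.8%). Embryo lists were short, with 24902 and 14255 intervals, and held few of either set: 4.98% and 1.97% of gained and 6.13% and 2.56% of lost regions, against 18.7% and 11.6% of all regions. Of the lost regions 57, and of the gained 16, were open in an Embryo library and in no WT library.

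At the level of whole loci, 15518 genes with a mean of at least 1 open region were tested with limma on the log2 share of each library's open regions. At a Benjamini-Hochberg adjusted p under 0.05, 70 loci had more open regions in SmoM2-Sox9cKO (0.451% of those tested) and 29 fewer (0.187%). None of the 99 had overlapping groups. The test favours such loci, so this lends the calls no further weight, and the share of all tested loci without overlap was not counted. A lost region lay at 29 of the 29 lower loci and a gained region at 58 of the 70 higher loci. Such regions are part of the counts tested, so their presence is no separate support for the calls. Of the 70, 43 had exactly 2 open regions in each SmoM2-Sox9cKO and 1 in each SmoM2 library, a pattern in which library totals alone set the spread, and 49 had constant counts within both groups. Without constant loci, 21 were higher and 27 lower. The split between directions moved with the scaling, to 95 higher and 101 lower without scaling to library totals, 65 and 69 by covered base pairs, and 126 and 84 with lists of equal length. Without SmoM2-Sox9cKO replicates 1, 2 and 3 in turn the counts were 7, 12 and 2 higher and 42, 45 and 14 lower, and without SmoM2 replicates 1, 2 and 3 they were 25, 7 and 10 higher and 14, 7 and 8 lower. With the presence or absence of intervals at Y-linked genes as a covariate, 7 loci were higher and 7 lower, 12 of them among the 99. Only SmoM2-Sox9cKO replicate 3 lacked such intervals, so this covariate marks that library alone. Of the 99, 33 were called in at least 50% of 23 alternative fits, 14 higher and 19 lower.

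The loci that fell most were closed, or nearly so, in every library with floxed Sox9. Nxph1 (chr6:8948614-9249619) had 8, 6 and 5 open regions in SmoM2 and is listed at 0 in all SmoM2-Sox9cKO libraries (adjusted p = 0.000545, called in 23 of 23 alternatives). Fam155a, which encodes a subunit of the sodium leak channel (chr8:9206006-9773329), had 9, 6 and 5 and is listed at 0 in each SmoM2-Sox9cKO library (adjusted p = 0.00117). Chrm3 (chr13:9875486-10361062) had 13, 11 and 16 open regions in SmoM2 and 2, 2 and 1 in SmoM2-Sox9cKO, a log2 change of -2.64 (SE 0.20, adjusted p = 0.00409, called in 22 of 23 alternatives). Over the regions of the 6 lists, WT had about as few open at these 3 loci as SmoM2-Sox9cKO. The WT counts were 0, 1 and 1 at Nxph1, 1, 0 and 1 at Fam155a, and 1, 2 and 1 at Chrm3. The 5 lost regions of the Chrm3 locus do not include the 9 of the desert run, which lie beyond 100 kb of the gene. With any library left out, Nxph1 and Fam155a were still called, and Chrm3 in each case but without SmoM2 replicate 3 (adjusted p = 0.0514).

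Lama4 (chr10:38965515-39110188), a laminin chain of basement membranes, had 4, 4 and 3 open regions in SmoM2 and is listed at 0 in the SmoM2-Sox9cKO libraries and in WT (adjusted p = 0.000545). Adamts18 (chr8:113697123-113849343) went the same way from 5, 5 and 5 to 1, 0 and 0 (log2 change -2.87, SE 0.38, adjusted p = 0.0495), but was open in WT, with 4, 5 and 4 regions. Ugt8a, the enzyme that makes galactosylceramide (chr3:125865272-125938682), had 14, 14 and 15 open regions in SmoM2 and 7, 4 and 4 in SmoM2-Sox9cKO (log2 change -1.41, SE 0.17, adjusted p = 0.04), with 0, 1 and 1 in WT. SmoM2-Sox9cKO and SmoM2 did not overlap at any of these loci, and WT stood with SmoM2-Sox9cKO at Lama4 and with SmoM2 at Adamts18. At Ugt8a the WT counts lay below those of both other groups, with SmoM2-Sox9cKO between WT and SmoM2. Lama4 was called with any library left out. Without SmoM2-Sox9cKO replicate 3, SmoM2 replicate 2 or SmoM2 replicate 3, the adjusted p was 0.0974, 0.138 and 0.086 at Adamts18 and 0.0707, 0.138 and 0.086 at Ugt8a, and Adamts18 was also lost without SmoM2 replicate 1 (0.052).

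Other loci that fell were Cox7c, a subunit of cytochrome c oxidase, with 6, 5 and 4 against 1, 1 and 1 (log2 change -1.80, SE 0.20, adjusted p = 0.0342), and Thsd7a, a thrombospondin-domain protein of endothelium, with 3, 6 and 5 against 1, 1 and 1 (log2 change -1.68, SE 0.24, adjusted p = 0.0495). In the small proline-rich gene cluster of the cornified envelope, Sprr2d had 2, 2 and 3 open regions in SmoM2 and Sprr2f 1, 3 and 2, and both are listed at 0 in SmoM2-Sox9cKO (adjusted p = 0.000153 and 0.0495). Sprr2f had 3 open regions in each WT library. Ear2, another eosinophil-associated ribonuclease gene, had 3, 2 and 3 against 0 in each (adjusted p = 0.000194). On the X chromosome Trap1a had 8, 5 and 8 against 2, 2 and 1 (log2 change -1.74, SE 0.23, adjusted p = 0.0495) and Fthl17a, a ferritin heavy chain-like gene, 3, 1 and 2 against 0 (adjusted p = 0.039). Sprr2, Ear and Fthl17 genes have near-identical copies, among which reads may be split or dropped, so calls there are uncertain. Ear2 and Sprr2d were called in every fit without 1 library in which they passed the filter on low values. The calls at Cox7c, Thsd7a, Sprr2f, Trap1a and Fthl17a were each lost without SmoM2-Sox9cKO replicate 1 (adjusted p = 0.0651, 0.0964, 0.0706, 0.0651 and 0.0651) and without its replicate 3 (0.0691, 0.134, 0.0974, 0.0691 and 0.0691). Without SmoM2 replicate 2 those at Cox7c, Thsd7a and Trap1a were lost (0.0982, 0.114 and 0.0982), without SmoM2 replicate 3 those at Thsd7a and Trap1a (0.101 and 0.086), without SmoM2 replicate 1 that at Trap1a (0.0824) and without SmoM2-Sox9cKO replicate 2 that at Thsd7a (0.0791).

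**Figure D5:**
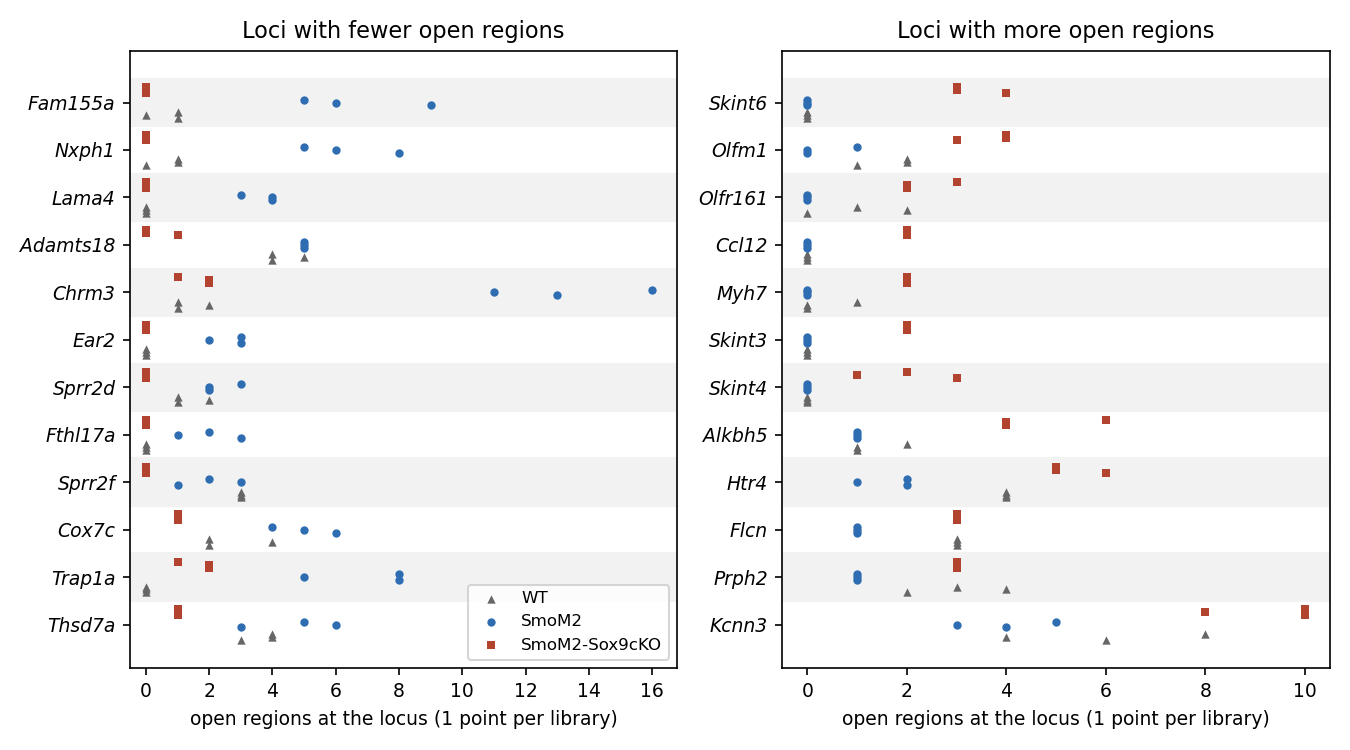
Open regions per library (horizontal axis, 1 point per library) at the 12 loci with the largest decrease and the 12 with the largest increase among those called, for WT, SmoM2 and SmoM2-Sox9cKO. The SmoM2 points of Chrm3 are at 11 to 16 while its WT and SmoM2-Sox9cKO points are at 1 or 2, and at Flcn the WT and SmoM2-Sox9cKO points are both at 3.

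The loci that rose include 3 Skint genes, of a family of immunoglobulin-like membrane proteins of squamous epithelia that select and maintain intraepithelial T cells. Skint6 had 4, 3 and 3 open regions in SmoM2-Sox9cKO, Skint3 2, 2 and 2, and Skint4 3, 1 and 2, and all 3 loci are listed at 0 in every SmoM2 library (adjusted p = 3.68e-05, 3.68e-05 and 0.0342). They are also listed at 0 in each WT library. Ccl12, a chemokine that attracts monocytes, had 2 open regions in each SmoM2-Sox9cKO library and 0 in SmoM2 and WT (adjusted p = 3.68e-05). Skint and Ccl genes lie in clusters of similar copies, so reads may be split among them. Skint6, Skint3 and Ccl12 were called in every fit without 1 library in which they passed the filter, and Skint4 not without SmoM2 replicate 2 or 3 (adjusted p = 0.0982 and 0.086).

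Other loci that rose include Alkbh5, an RNA demethylase gene (chr11:60537683-60558512), with 4, 4 and 6 open regions against 1 in each SmoM2 library (log2 change 1.82, SE 0.21, adjusted p = 0.0352). Olfm1, an olfactomedin of neural tissue, had 3, 4 and 4 against 0, 0 and 1 (log2 change 2.58, SE 0.39, adjusted p = 0.0495). Htr4, a serotonin receptor, had 6, 5 and 5 against 2, 1 and 2 (log2 change 1.52, SE 0.19, adjusted p = 0.0495), and WT had 4 in each library. Kcnn3, a calcium-activated potassium channel, had 10, 8 and 10 against 4, 3 and 5 (log2 change 1.21, SE 0.15, adjusted p = 0.0483). Flcn, the folliculin gene, had 3 in each against 1 in each and 3 in each WT library (log2 change 1.28, SE 0.13, adjusted p = 0.0296), and Prph2, a photoreceptor membrane protein, had the same counts in both SmoM2 groups. Myh7, a cardiac and slow-muscle myosin heavy chain, had 2 in each SmoM2-Sox9cKO library and 0 in SmoM2 (adjusted p = 3.68e-05), and Olfr161, an olfactory receptor gene, 2, 2 and 3 against 0 (adjusted p = 0.0016). All of these are counts of open regions, not expression. Myh7 and Olfr161 were called in every fit without 1 library in which they passed the filter. Without SmoM2 replicate 2 none of the other 6 was called (adjusted p from 0.0717 at Htr4 to 0.147 at Olfm1). Without SmoM2 replicate 3 Olfm1 alone of these was called (0.0694 to 0.086 at the others), and without SmoM2-Sox9cKO replicate 3 Alkbh5 alone (0.0691 to 0.134). Olfm1, Htr4 and Kcnn3 were also lost without SmoM2-Sox9cKO replicate 1 (0.0658, 0.0651 and 0.0651), Olfm1 and Htr4 without its replicate 2 (0.0779 and 0.0611), and Olfm1, Kcnn3, Flcn and Prph2 without SmoM2 replicate 1 (0.0954, 0.0542, 0.0542 and 0.0542).

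By number of changed regions, 712 of 17186 loci had a gained region (4.14%), 1096 a lost one (6.38%) and 71 both. Slit3, a secreted guidance cue, had 5 gained regions, with 33, 33 and 39 open in SmoM2-Sox9cKO and 24, 18 and 21 in SmoM2, and Pax2, a paired-box factor, had 3, with 6, 5 and 6 against 0, 0 and 2. Camta1, a calmodulin-binding factor, had 37, 36 and 39 against 24, 22 and 32, and Lingo1, a membrane protein of neurons, 6, 7 and 9 against 2, 2 and 4, with 3 gained regions each. None of these 4 passed the test over all loci (adjusted p = 0.0749, 0.0947, 0.0756 and 0.0756). Their groups did not overlap, but these genes were named by their gained regions. Each gained region adds to every SmoM2-Sox9cKO count and to no SmoM2 count, so the lack of overlap is partly built in. Aopep, an aminopeptidase gene, also had 3 gained regions, among 46, 44 and 44 open ones against 39, 43 and 43, and Grik4, a kainate receptor, 3 among 18, 13 and 16 against 14, 10 and 18 (adjusted p = 0.485 and 0.751). Esrrg, an orphan nuclear receptor, had the most lost regions, 7, with 9, 13 and 6 open regions against 19, 19 and 20 in SmoM2 (adjusted p = 0.17). Dlgap1, a postsynaptic scaffold gene, had 5 lost and 1 gained, with 17, 16 and 17 against 23, 21 and 22 (adjusted p = 0.212).

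The Hedgehog list, of 30 loci tested, had 0 called in either direction, with 2 higher and 2 lower at an unadjusted limma p under 0.05. Of all 15518 loci tested, 980 were higher and 720 lower at that unadjusted threshold, the background for such counts in every list. The median log2 change of the Hedgehog list was 0.06, equal to that of all loci. Gli1, a direct target and effector, had 2, 3 and 3 open regions in SmoM2-Sox9cKO and 3 in each SmoM2 library, and Ptch1, the receptor and feedback target, 13, 15 and 14 against 13, 12 and 15. Gli2, the main activator, had 28, 21 and 26 against 26, 25 and 30, Hhip, a ligand-binding inhibitor, 2, 2 and 1 against 2, 1 and 2, and Smo itself 7, 6 and 4 against 8, 6 and 7. The groups overlapped at each of these 5 genes. Of the list's 340 regions 6 were gained (1.76%) and 8 lost (2.35%), where 0.787% and 1.37% of the regions at all loci were. Gli3, the main repressor of the pathway, held 4 of the lost and 1 of the gained regions, with 19, 14 and 14 open regions against 19, 21 and 21 (adjusted p = 0.341). Gas1 and Cdon, co-receptors, had 1 of each. At the ligand gene Dhh a gained region reached the promoter window (250 bases before to 50 after the start site) in all 3 SmoM2-Sox9cKO libraries, and at the ligand gene Ihh in 1 of 3.

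Of 16 Sox genes tested 0 were called (2 higher and 2 lower at an unadjusted limma p under 0.05). All 6 of their changed regions, among 207, were lost (2.90%, against 1.37% at all loci), 4 at Sox5, a partner of SOX9 in cartilage, and 2 at Sox4, a progenitor factor. Sox5 had 17, 17 and 13 open regions against 29, 22 and 27, without overlap (log2 change -0.65, SE 0.12, adjusted p = 0.0792). None of its 4 lost regions was open in a WT library. Sox2, the foregut progenitor factor, had 15, 11 and 11 against 13, 13 and 15. Of 17 cartilage genes known as SOX9 targets 0 were called (2 higher and 1 lower unadjusted), and of their 102 regions 1 was gained, at Col9a3, and 0 were lost.

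In the remaining lists calls were few: of 436 genes tested over all 16 pathway lists, 1 rose (0.229%) and 3 fell (0.688%), against 0.451% and 0.187% of all loci tested. In the Wnt list of 47, Nkd1, a feedback inhibitor, rose from 2 to 4 open regions in every library (log2 change 0.91, SE 0.13, adjusted p = 0.0495), with 4 in each WT library, and Apc, a scaffold of the destruction complex, fell from 7, 7 and 9 to 4, 3 and 4 (log2 change -0.91, SE 0.14, adjusted p = 0.0495). Neither was called with any of the 6 libraries left out (adjusted p from 0.0714 to 0.159 for Nkd1 and 0.088 to 0.15 for Apc). Among 38 extracellular matrix genes Lama4 fell, and among 40 genes of squamous differentiation Sprr2d, while Klf4, a differentiation factor, had 12, 11 and 9 against 12, 12 and 15. No call was made among 37 BMP and TGF-beta, 25 Notch, 35 cell cycle, 29 AP-1 and stress, 29 hair follicle and basal cell carcinoma, 27 basal epithelial, 31 columnar, 38 foregut, 14 mesenchymal transition or 25 housekeeping genes. At an unadjusted limma p under 0.05 each of these lists had 1 to 4 members higher and 0 to 2 lower. Regions at BMP and TGF-beta genes were lost at 8 and gained at 1 of 512 (1.56% and 0.195%), the lost share being close to the 1.37% at all loci, with 3 of the lost at Bmp6.

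The label of sorted epithelium was checked on markers. Of 17 basal squamous genes with a promoter window, 15 were open in each SmoM2-Sox9cKO library and 14, 15 and 15 in SmoM2. Krt5 had 4 open regions in each SmoM2-Sox9cKO library and 3, 2 and 4 in SmoM2, Krt14 5, 5 and 6 against 5, 5 and 6, and Trp63, the basal master factor, 36, 33 and 34 against 34, 28 and 42. The simple-epithelial keratin gene Krt8 had 1 in every library and the stem cell receptor gene Lgr5 16, 14 and 9 against 13, 12 and 15. Epcam, the gene of the sorting marker, had 13, 13 and 15 against 11, 11 and 10, without overlap (log2 change 0.40, SE 0.13, adjusted p = 0.337). Its locus had 2 gained regions, 78950 and 68838 bp from the gene body. The Epcam promoter window was open in 3 of 3 libraries of both groups.

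Markers of other cell types gave 2 calls among 98 genes of 11 lists (2.04%, where 0.451% of all loci rose and 0.187% fell), both upward: Lyve1, a lymphatic endothelial receptor, with 2 against 1 in every library, and Snap25, a synaptic protein, with 14, 13 and 12 against 9, 9 and 10 (log2 change 0.52, SE 0.08, adjusted p = 0.0495). Neither was called with any of the 6 libraries left out (adjusted p from 0.0651 to 0.159 and 0.086 to 0.159). Of the regions at these markers 10 were gained and 5 lost of 614 (1.63% and 0.814%), against 0.787% and 1.37% at all loci. Summed over 20 endothelial genes, open regions ranged from 114 to 116 in SmoM2-Sox9cKO and 98 to 114 in SmoM2, and for the 16 fibroblast genes listed from 56 to 65 and 56 to 59. Leukocyte sums ranged from 18 to 22 and 18 to 23. Of 8 leukocyte promoter windows, those of Cd68 and Ikzf1 were open in all 6 libraries, and the other 6, that of the pan-leukocyte gene Ptprc among them, were closed. The Ptprc locus had 1 open region in each SmoM2-Sox9cKO library and 6, 1 and 2 in SmoM2. Of 11 endothelial windows 4, 4 and 3 were open in SmoM2-Sox9cKO and 3, 4 and 5 in SmoM2. For 11 fibroblast windows the counts were 5, 6 and 4 against 5, 4 and 4. For 7 Merkel and neuroendocrine windows they were 7, 3 and 4 against 5, 5 and 5. For 13 windows of unrelated tissue they were 2, 2 and 2 against 2, 1 and 2. The sums of the 10 melanocyte genes listed did not overlap, at 27 to 32 in SmoM2-Sox9cKO and 35 to 36 in SmoM2. Of these genes Kit alone had groups without overlap, with 4, 5 and 4 against 9, 6 and 9. Of the 16 pathway lists only the mesenchymal transition list had sums without overlap, at 58 to 76 and 77 to 88. All these sums are not scaled to library totals. The sums of the other 7 marker lists overlapped. The part of other cells in the results was not tested.

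In all 3 libraries of their group, 31 gained regions (3.59%) and 22 lost regions (1.31%) reached a promoter window. The share of all regions reaching such a window was not counted. Named genes with a gained region at the promoter include Dhh, Hoxd1 and Pax6, developmental regulators, Car9, a hypoxia-induced carbonic anhydrase, and Skint3, Olfm1 and Lingo1. Those with a lost one include Adamts18, Pdgfd, a platelet-derived growth factor, Lims1, an integrin adaptor, Grip1, a scaffold protein, and Defb6, a beta-defensin. Of these regions 12 gained and 3 lost were open in all 3 WT libraries and 3 gained and 14 lost in none. Gained windows were richer in G and C, with a median of 57.2% and 10.5 CpG per 300 bases against 47.2% and 4.0 in lost windows, 53.0% and 7.0 in all 32619 windows and 62.0% and 22.0 in windows open in all 6 libraries.

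The 250 bases before the start site are shown for 5 of these genes, from RefSeq sequence of GRCm38.p6, to set gained against lost promoters, with matches to the SOX letters ACAAAG, the variant form ACAATG or the variant form AACAAT on either strand in capitals. Each runs 5′ to 3′ on the gene's strand: Dhh (chr15:98898541-98898790, minus strand, gained), Skint3 (chr4:112231995-112232244, plus, gained), Adamts18 (chr8:113848840-113849089, minus, lost), Pdgfd (chr9:6168236-6168485, plus, lost) and Defb6 (chr8:19225228-19225477, plus, lost).
Dhh: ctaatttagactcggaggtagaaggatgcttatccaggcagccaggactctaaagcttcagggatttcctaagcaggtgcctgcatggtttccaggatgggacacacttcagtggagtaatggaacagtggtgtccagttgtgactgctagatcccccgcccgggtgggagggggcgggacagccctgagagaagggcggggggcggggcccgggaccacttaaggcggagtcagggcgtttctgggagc
Skint3: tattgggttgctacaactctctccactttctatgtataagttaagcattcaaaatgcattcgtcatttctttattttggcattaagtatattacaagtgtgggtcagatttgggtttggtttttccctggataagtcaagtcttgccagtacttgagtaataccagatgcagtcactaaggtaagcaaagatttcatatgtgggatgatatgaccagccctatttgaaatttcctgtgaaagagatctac
Adamts18: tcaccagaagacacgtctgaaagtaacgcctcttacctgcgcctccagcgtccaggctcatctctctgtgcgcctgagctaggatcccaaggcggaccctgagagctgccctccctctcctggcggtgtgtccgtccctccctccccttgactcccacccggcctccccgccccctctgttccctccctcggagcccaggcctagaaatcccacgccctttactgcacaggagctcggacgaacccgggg
Pdgfd: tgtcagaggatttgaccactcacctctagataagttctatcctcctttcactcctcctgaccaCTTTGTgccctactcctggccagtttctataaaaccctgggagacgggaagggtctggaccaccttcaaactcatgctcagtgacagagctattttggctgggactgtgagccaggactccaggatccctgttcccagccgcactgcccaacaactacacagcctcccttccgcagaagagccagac
Defb6: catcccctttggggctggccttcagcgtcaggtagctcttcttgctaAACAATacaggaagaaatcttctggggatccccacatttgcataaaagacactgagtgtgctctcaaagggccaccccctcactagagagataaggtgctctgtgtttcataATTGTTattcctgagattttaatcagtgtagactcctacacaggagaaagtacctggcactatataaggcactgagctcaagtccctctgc
Pdgfd has 1 match and Defb6 2 in these bases, and Dhh, Skint3 and Adamts18 have 0. The promoters shown do not stand for their sets. Among those not shown, the gained promoters of Tmem139, Agr3 and Unc5cl have 2, 1 and 1 matches, and the lost promoters of Lims1 and Grip1 have 0.

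In whole windows of 300 bases, at least 1 of these SOX letters was present in 7 of 32 gained (21.9%), 11 of 22 lost (50%) and 32.8% of all windows. In windows open in all 6 libraries the share was 21.2%, close to that of gained windows. For ACAAAG alone the shares were 18.8%, 27.3% and 18.7%, and for ACAATG alone 3.12%, 9.09% and 12.2%. AACAAT, which can overlap ACAATG by 5 letters, was present in 3.12%, 18.2% and 10.6%. The AP-1 letters TGANTCA were present in 15.6% of gained, 27.3% of lost and 7.85% of all windows, and the GATA letters AGATAA in 3.12%, 27.3% and 11.2%. In windows open in all 6 libraries the AP-1 and GATA shares were 6% and 5.3%. The GLI letters TGGGTGGTC were in 0 of 32 gained, 0 of 22 lost and 0.254% of all windows. Of the remaining letters, gained and lost windows held TEAD GGAATG in 9.38% and 13.6% (14.6% of all), RUNX TGTGGTT in 6.25% and 0% (5.29%), FOX TGTTTAC in 0% and 4.55% (3.67%), E-box CAGCTG in 9.38% and 9.09% (16.4%), KLF GGGTGTG in 12.5% and 0% (8.0%) and CREB TGACGTCA in 3.12% and 0% (1.8%). These are matches of letters in few windows that also differ in base composition, and most changed regions lie outside them.

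By the median rank in the 3 lists of their group, the strongest lost regions stood higher than the strongest gained ones. A lost region inside Ube2j1, a ubiquitin-conjugating enzyme (chr4:33039440-33040539), ranked in the top 5.62%, 4.71% and 6.21% of the SmoM2 lists with fold enrichments of 12.4, 11.7 and 12.6, and was open in all 3 WT libraries. A lost region in Cobl, an actin nucleator (chr11:12375024-12375274), had 9.55, 18.0 and 11.8. Next was a lost region more than 100 kb from any gene (chr18:11288593-11288837), with 19.5, 16.5 and 16.7, the highest values among these 5 lost regions in replicates 1 and 3. A region of the desert run near Chrm3 (chr13:10636658-10637420) had 8.16, 12.7 and 12.5, and a region 20.6 kb from Ear1 (chr14:43840257-43841506) had 11.1, 9.91 and 9.43. Among gained regions, the strongest lay 13.7 kb from Arf6, a small GTPase (chr12:69389677-69390471), in the top 27.1%, 17.3% and 14.1% of the SmoM2-Sox9cKO lists with 5.71, 9.39 and 8.07. Both next strongest were part of the run between Pax1 and Foxa2, at chr2:147747240-147748248 (6.87, 8.90 and 9.10) and chr2:147767670-147768434 (10.2, 10.7 and 13.2), followed by regions in Skint4 (7.72, 12.7 and 10.5) and 14.4 kb from Ccl12 (8.60, 11.7 and 7.16). None of these last 4 was open in a WT library.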

How the data were processed

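Each of the 11 ATAC-seq libraries has 1 list of open intervals in 10-column peak layout on GRCm38/mm10. Per the submitters' processing notes, Trimmomatic, Bowtie2, Picard, MACS2 and deepTools were used, with versions and settings not given in the sources used here. The authors deposited per interval a fold enrichment (a ratio), −log10 p and −log10 q values, a whole-number score and the summit offset. No reads were counted here, so the precision of each interval is unknown.

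Intervals of chromosomes 1 to 19 and X of the 6 lists were merged with Python 3.11.15 and pandas 2.3.3. A locus holds the regions closer to that protein-coding gene than to another, up to 100 kb away, using RefSeq names and coordinates of GRCm38.p6. Open regions per locus were tested with limma 3.58.1 (R 4.3.3, trend) on the log2 of (regions + 0.5) scaled to 100000 regions per library, for loci with a mean of at least 1, with Benjamini-Hochberg adjustment. A log2 change is on that scale, which understates changes of low counts. The procedure was tested on simulated data. The total number of intervals was compared by an exact permutation test.

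Named loci were the 12 called loci with the largest change in each direction, those with the most gained or lost regions (up to 8, at least 3), up to 4 called members of each list, and fixed Hedgehog and epithelial genes. The 5 strongest regions and 5 largest runs of each set were named, and genes beyond these rules were chosen after their values were seen. The members and lists were chosen with earlier results of these data known. Promoter sequences are RefSeq, with a window for 26794 genes in all.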

Additional observations from a re-analysis of the deposited data

How the results depend on the processing

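No called locus changed direction under any alternative run, and lost regions outnumbered gained ones in each. The counts of loci that rose and fell moved most. Without each library in turn they were 2 to 25 and 7 to 45. Further counts, higher then lower, were 18 and 24 with a pseudocount of 1, 71 and 71 with 0.25, 15 and 21 with a mean of at least 2 regions, 125 and 143 without a filter, 7 and 14 within 20 kb of the gene, 65 and 69 by covered base pairs, 95 and 101 without scaling, 13 and 15 with limma's robust option, 4 and 17 for intervals with a −log10 q of at least 5, 126 and 84 with lists of equal length, 14 and 24 with 500 bp windows around summits, 67 and 65 with WT in the fit, and 7 and 7 with the Y-linked covariate. The fit with a replicate block gave 241 and 253, including all 99 calls, but same-numbered libraries did not deviate together (r = -0.06, 0.01 and -0.01) and share only a number. Scaling shifted the median log2 change of all loci to 0.06.

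Gained and lost regions numbered 3261 and 5080 when 2 of 3 libraries sufficed, and 1093 to 2005 and 1932 to 3496 without each library in turn. The share with another of the set nearby was 7.41% and 13.4% within 20 kb and 22.0% and 31.2% within 100 kb. Within 50 kb it was 17.1% and 19.6% with equal lists, 16.6% of lost regions at the stricter q, and 14.8% to 24.0% and 22.3% to 29.7% without each library. Gained regions open in 3 WT libraries were 44.6% with equal lists and 27.3% to 41.6% without each library. Lost regions open in no WT library were 73.2% at the stricter q and 50.5% to 72.7% without each library, alternatives chosen after the data were seen. The cause of these differences was not tested. With no genome sequence used here, motifs around summits were not run. Depth is unknown, so a region listed as closed may be open below the calling threshold.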
